A study of Mus musculus with 15 samples.

Results

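Oxidative phosphorylation genes encoded in the nucleus were followed in 15 poly(A) RNA-seq libraries of mouse cerebellar cells. The genes were taken by symbol. They are those that start with Nduf, Uqcr, Atp5, Cox4, Cox5, Cox6, Cox7 or Cox8, together with Sdha, Sdhb, Sdhc and Sdhd, without pseudogene symbols. The rule uses no measured value and gave 87 of the 21889 genes in the gene table. Of these, 84 had enough counts to be tested, among 15259 genes tested in all. By role they were 32 subunits of complex I, 8 assembly factors of complex I (symbols starting with Ndufaf), 4 subunits of complex II, 8 of complex III, 17 of complex IV and 15 of complex V. Ndufa4 and Ndufa4l2 were placed with complex IV, where the Ndufa4 protein sits. The 3 genes left untested were Cox8b with 55 counts over all libraries, Cox7b2 with 67 and Cox8c with 1.

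The study sampled granule neuron precursors, the dividing cells of the outer cerebellum that become granule neurons. They were collected at the embryonic age E15.5 from mice of genotype Math1-GFP, and on postnatal days 1, 7 and 14 (P1, P7, P14) from mice labelled WT. The remaining group was medulloblastoma cells (MB) of genotype Ptch1 heterozygous, for which the labels give no age. Each group held 3 libraries, and all cells were purified on Percoll. The E15.5 mice differ from the P1 mice in genotype as well as age, and these cannot be told apart. Nothing in the labels says whether the 3 libraries of a group came from separate mice or litters, so p-values measure the spread between libraries only.

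Mitochondria make ATP by passing electrons from NADH and succinate through complexes I to IV to oxygen, which pumps protons across the inner membrane. Complex V, the ATP synthase, lets the protons flow back and makes ATP. Most subunits of these complexes are encoded in the nucleus, and a few core ones in mitochondrial DNA, which are not analysed here. Dividing granule neuron precursors are known for strong aerobic glycolysis under Sonic hedgehog signalling, and Ptch1 is the receptor that restrains that pathway.

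Counts in genes ran from 12597472 to 43443132 per library. Levels are given as CPM, a gene's count relative to the library total after scaling with TMM factors. The summed CPM of 12 granule precursor markers lay between 3402 and 5058 at E15.5 and between 8937 and 10151 in MB, and no marker was at 0 in a whole group. Ptch1 lay between 53.9 and 129 CPM at E15.5, between 251.7 and 340.1 CPM at P7, and between 202.2 and 348.6 CPM in MB, so that P7 and MB overlapped. The libraries fell into sets of 6 and 9 by how the gene table counted Tsnax, a gene nearly absent from the gene table in the first set. P7 libraries belonged only to the first set, and those of P1 and P14 only to the second, so for P7 against P1 or P14 the counting set and age cannot be told apart. Of the 82 oxidative phosphorylation genes with at least 500 counts, 0 had a share of the transcript count that separated the sets. For 11 of the 84 genes the gene table held under 70% of the counts in the transcript table, and their levels are uncertain, since reads of near-identical copies can be split by the counting. The lowest were Atp5l with 6.29%, Ndufb4 with 6.98%, Cox7c with 16.7% and Cox5b with 26.9%.

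E15.5 replicate 3 stood apart from the other libraries. In E15.5 replicate 3 the 84 genes summed to 18638 CPM, against 9700 CPM in E15.5 replicate 1 and 8952 CPM in replicate 2. They took 1.63% of its counts, against 0.937% and 0.851%. In this library 82 of the 84 genes lay above both other E15.5 libraries, with a median ratio of 2.03 to their mean, and 68 of the 84 were higher than in any other library of the study. Over all genes the difference between E15.5 replicate 3 and the other E15.5 libraries fell with transcript length, from a median log2 difference of 0.69 in the shortest of 5 equal bins of genes to -0.49 in the longest. The oxidative phosphorylation genes are short, with a median transcript of 849.5 nt against 2851.5 nt for all genes, and 68 of the 84 lie in the shortest bin. Reads with several alignments made up 42.2% of the records of this library, against 32.5% and 32.3% in the other E15.5 libraries. Granule neuron precursor markers summed to 3402 CPM in replicate 3, against 4695 and 5058 CPM in replicates 1 and 2. Those of maturing granule neurons summed to 1852 CPM, against 3351 and 3619 CPM. Skeletal muscle, oligodendrocyte and choroid plexus markers were also lower. Markers of pericytes and smooth muscle, endothelium, Purkinje cells, GABAergic interneurons, astroglia, and microglia and macrophages were higher. The part of RNA or library quality, or of cell content, in these differences was not tested. The counts of called genes for P1 against E15.5 are therefore given with this library, without it, and with all libraries after a correction for transcript length and GC content.

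**Figure D1:**
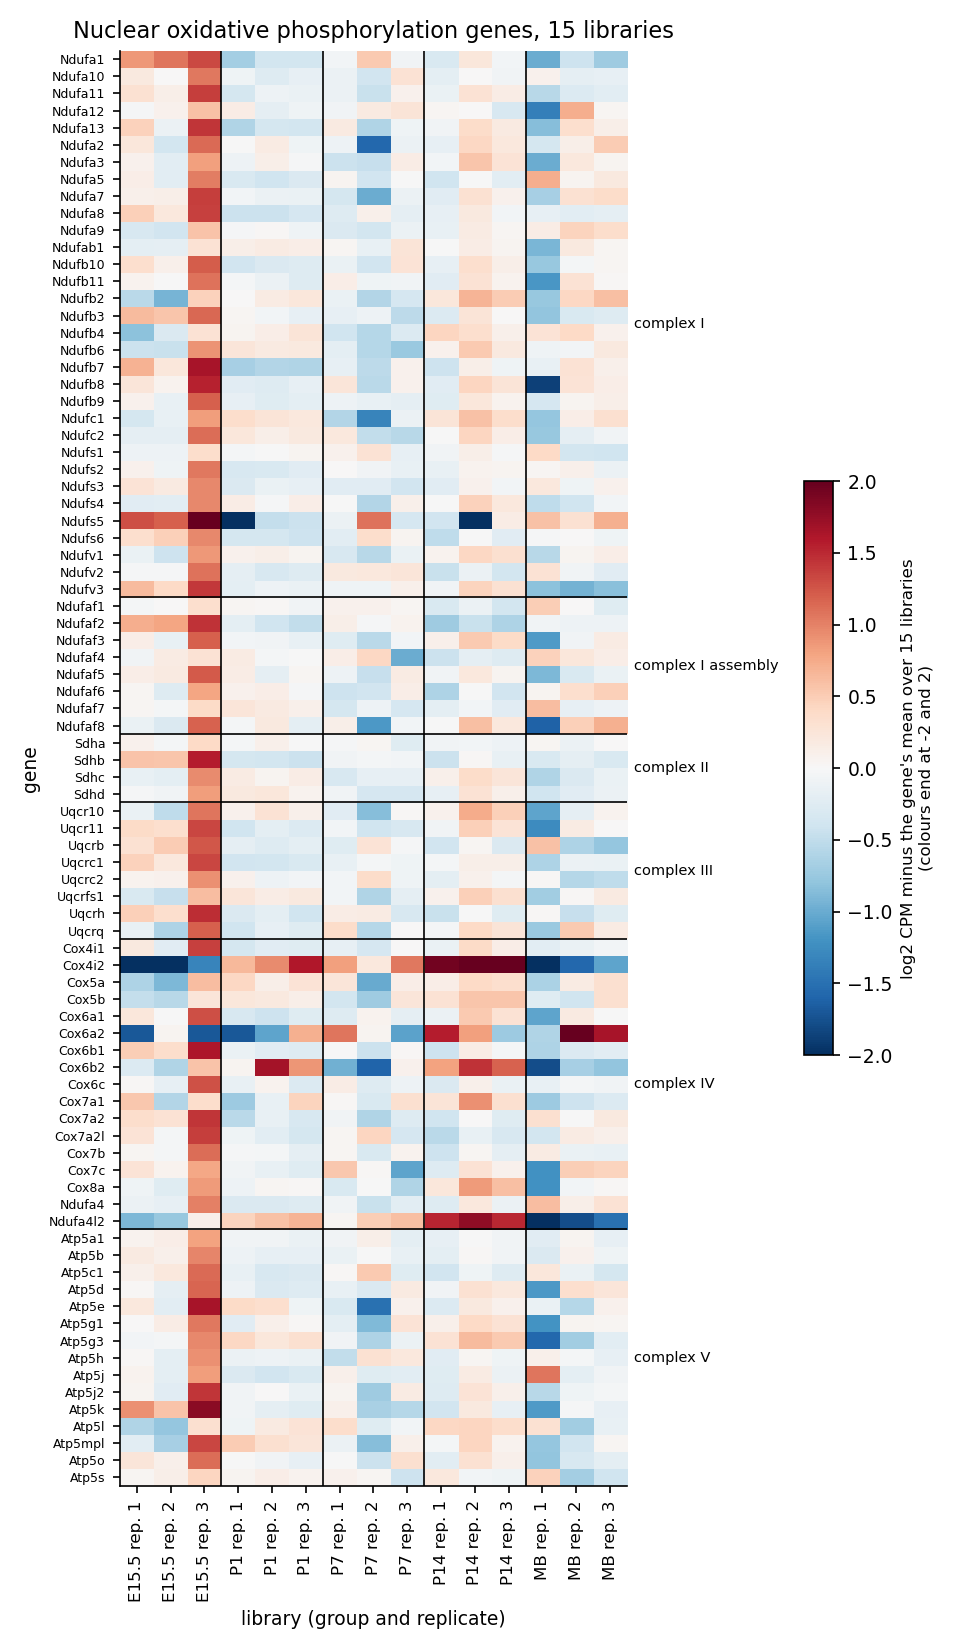
Heatmap of the 84 genes (rows, grouped by complex) in the 15 libraries (columns), coloured by log2 CPM minus the gene's own mean over all libraries. The column of E15.5 replicate 3 is high for most genes, and MB replicate 1 is the lowest library for 36 of the 84.

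Per transcript length, Atp5b of complex V was the most abundant. Atp5b and Atp5a1, the catalytic beta and the alpha subunit of the ATP synthase, had 607 and 429.6 CPM per kb as means over the 15 libraries. Atp5g3, one of the genes for the membrane ring subunit c, had 269 CPM per kb. In complex IV, Cox4i1, Ndufa4 and Cox6b1 had 465, 463 and 396 CPM per kb. In complex III, Uqcrh, the hinge subunit beside cytochrome c1, had 307 CPM per kb, Uqcr10 155 and the core subunit Uqcrc1 122. Complex II was led by the iron-sulfur subunit Sdhb with 132 CPM per kb, followed by Sdhc with 120 and the flavoprotein Sdha with 77.6. The highest genes of complex I were Ndufb9 with 174, Ndufa2 with 142 and Ndufa3 with 139.6 CPM per kb. Complex I assembly factors were lower, with Ndufaf2 the highest at 33.2 CPM per kb, then Ndufaf3 at 23.3 and Ndufaf5 at 19.9.

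Summed over the 84 genes, the level was nearly flat over the postnatal ages. It was 8140 ± 121 CPM (SD, n = 3) at P1, 8237 ± 180.04 CPM in the P7 libraries, 9003 ± 1091 CPM in those of P14 and 8192 ± 650.1 CPM in MB. At E15.5 it was 12430 ± 5389 CPM, with replicate 3 far above the other libraries. The 3 P1 libraries lay within 8013 to 8254 CPM, while the P14 libraries ran from 7893 to 10075 CPM and overlapped those of P1 and P7. Complex I, which oxidises NADH, summed to 1956 ± 5.96 CPM at P1, with later means of 1989 ± 143 CPM (P7), 2242 ± 303 CPM (P14) and 2048 ± 221 CPM (MB). Complex III, which passes electrons to cytochrome c, had 816 ± 8.76 CPM at P1 and 771 ± 49.4 CPM in MB. Complex V, the largest in summed CPM, had 3270 ± 109 CPM at P1 and 3199 ± 253 CPM in MB.

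**Figure D2:**
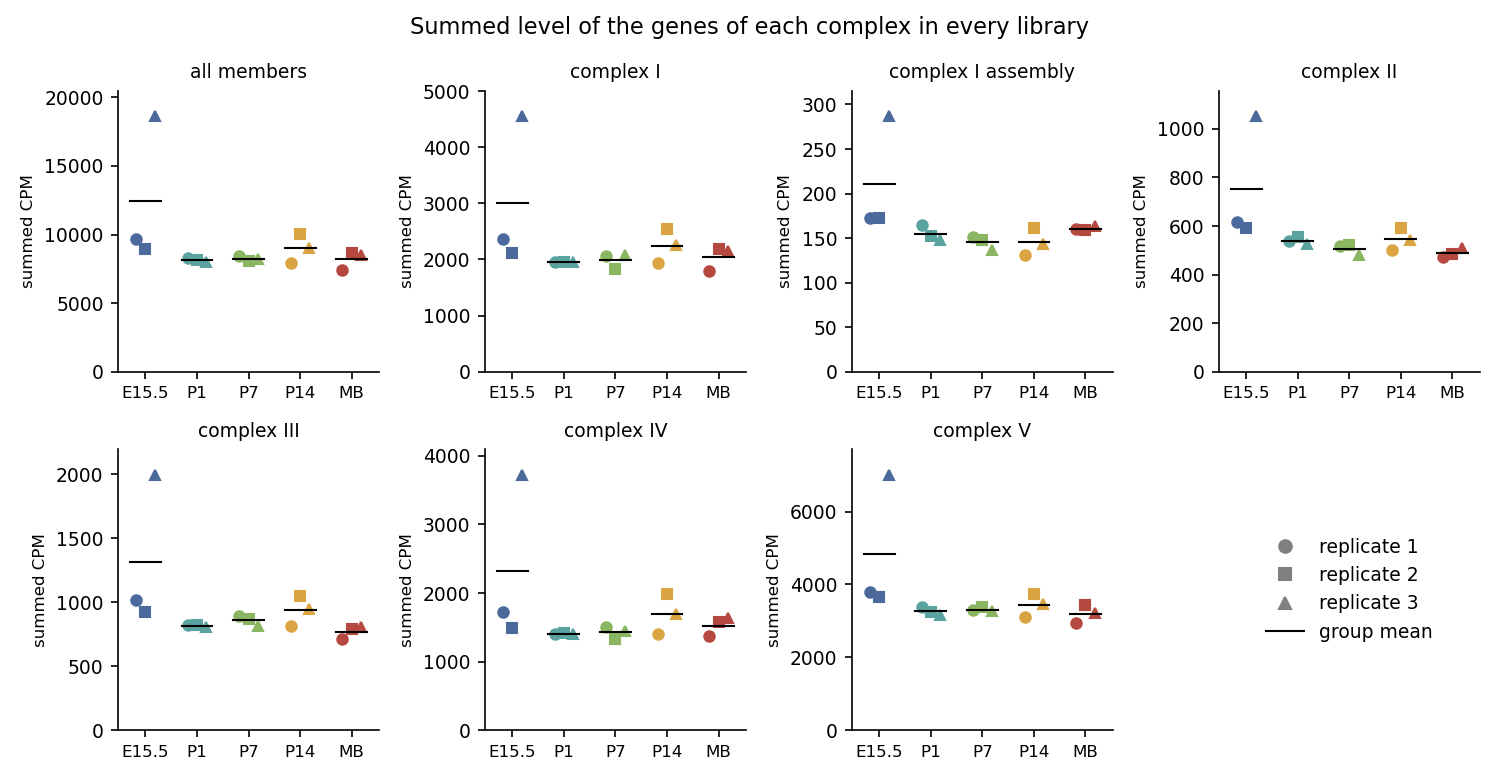
Summed CPM of the tested genes of each complex in each library (points, shape by replicate) with the group mean (line), on axes that start at 0. E15.5 replicate 3 is the highest point in each panel, and the postnatal and MB groups overlap for all members.

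The promoters of some of these genes are known to bind NRF1 or ETS factors such as GABP. RefSeq promoter windows (GRCm38.p6, 250 bases before to 50 after the start) were matched for 69 of the 87 genes. The NRF1 core GCATGCGC was in 10 of the 69 (14.5%), against 3.05% of the 27025 genes with a window. The longer NRF1 motif, in which GC stands before that core, was in 6 of those 10 (8.70%, against 1.07%). The ETS sequence CCGGAAG was in 17 (24.6%, against 9.93%) and the YY1 sequence AAGATGGC in 9 (13.04%, against 3.19%). Both strands were searched, and a match is a description of the letters. The 27025 genes include genes not tested here, while 84 of the 87 oxidative phosphorylation genes were tested. The part of this difference between the sets in the shares was not tested. Shown here are 120 bases that end just before the outermost annotated start of 3 genes called lower at P1, with an NRF1 match (Ndufa11) or an ETS match (Uqcr11, and on the reverse strand Uqcrh) in capitals, and of Ndufv3, called lower at P1 and in MB, which has no match in its stretch. They lie at chr17:56717642-56717761 (plus strand), chr10:80406831-80406950 (minus), chr4:116075072-116075191 (minus) and chr17:31519995-31520114 (plus). Most of the oxidative phosphorylation genes have no match in the same 120 bases. Among those without one are Ndufa1, Ndufa8, Ndufb7, Sdhb, Uqcrc1 and Atp5k, which were also called lower at P1. In the longer windows used for the shares, Ndufa8, Ndufb7, Sdhb, Uqcrc1 and Atp5k do have a match, and Ndufa1 has none. A match within the 120 bases, as in the 3 printed, is therefore not typical of the genes called lower. The calls of Ndufa11 and Uqcr11 were lost without E15.5 replicate 3.
Ndufa11: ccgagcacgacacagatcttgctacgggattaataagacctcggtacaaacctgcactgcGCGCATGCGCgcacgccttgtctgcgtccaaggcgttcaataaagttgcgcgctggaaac
Uqcr11: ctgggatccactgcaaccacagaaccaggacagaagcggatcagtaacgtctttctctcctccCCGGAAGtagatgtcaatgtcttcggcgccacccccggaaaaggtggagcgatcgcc
Uqcrh: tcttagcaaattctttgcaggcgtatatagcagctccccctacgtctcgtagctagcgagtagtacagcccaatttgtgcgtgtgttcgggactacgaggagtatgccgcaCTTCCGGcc
Ndufv3: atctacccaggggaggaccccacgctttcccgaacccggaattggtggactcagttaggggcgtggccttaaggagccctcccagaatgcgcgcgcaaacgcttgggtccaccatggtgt

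From E15.5 to P1, with all libraries, 30 of the 84 genes were called lower and 2 higher. Calls used edgeR's quasi-likelihood test at a Benjamini-Hochberg FDR under 0.05 over all genes. Of all genes tested, 20.9% were called lower and 25.4% higher. The median log2 fold change of the 84 genes was -0.58, against 0.03 for all genes. Without E15.5 replicate 3, 15 were called lower and 4 higher, with a median of -0.15, and all 15 were among the 30. In that fit 18.3% of all genes were called lower and 20.8% higher, so the share of oxidative phosphorylation genes called lower was close to that of all genes. With the length and GC correction 24 were called lower and 9 higher, with a median of -0.19, against 23.3% and 28.5% of all genes. Without P1 replicate 2, 19 were called lower, against 15.4% of all genes.

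**Figure D3:**
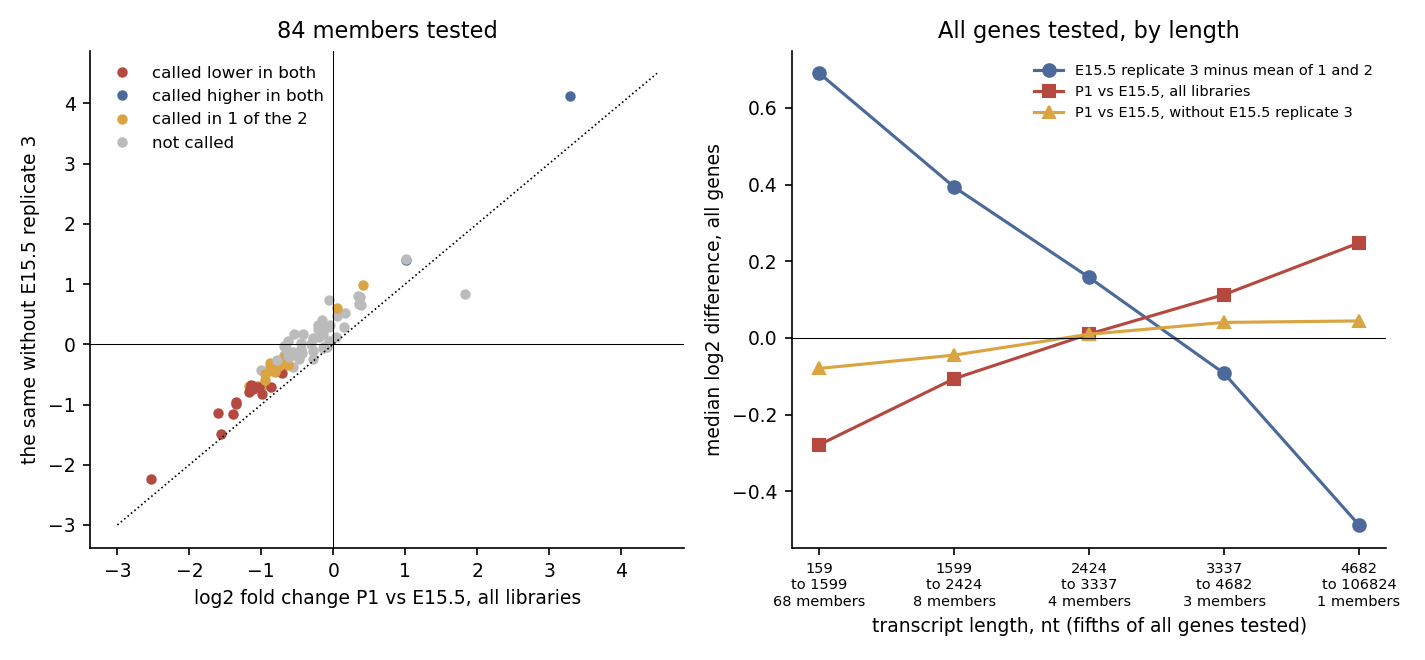
Left, log2 fold change of each of the 84 genes from E15.5 to P1 with all libraries (horizontal) and without E15.5 replicate 3 (vertical), with equality dotted and colour for the calls. Right, median log2 difference of all genes in 5 equal bins of transcript length, where the excess of E15.5 replicate 3 runs from 0.69 to -0.49 and the slope of P1 against E15.5 is smaller without it.

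In 14 genes the call of a lower level at P1 held in all 3 fits. They were the complex I subunits Ndufa1, Ndufa8, Ndufb3, Ndufb7, Ndufs5, Ndufs6 and Ndufv3, the assembly factor Ndufaf2, Sdhb of complex II, Uqcrc1 and Uqcrh of complex III, Cox6b1 and Cox7a2 of complex IV, and Atp5k of complex V. By complex, with all libraries, 16 of 32 complex I subunits were called lower, 1 of 8 assembly factors, 1 of 4 genes of complex II, 4 of 8 of complex III, 5 of 17 of complex IV and 3 of 15 of complex V. Without E15.5 replicate 3 these counts were 8 of 32, 1 of 8, 1 of 4, 2 of 8, 2 of 17 and 1 of 15. Markers of other cells also differed between these ages, with 8 of 8 for astroglia, 10 of 10 for oligodendrocytes, 8 of 8 for endothelium, 8 of 9 for microglia and macrophages and 6 of 7 for choroid plexus called higher at P1. For GABAergic interneurons 6 of 8 were called lower. The 12 skeletal muscle markers summed to between 40.1 and 83.1 CPM at E15.5 and between 7.39 and 13.7 CPM at P1. The part of these cells in the results was not tested.

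Ndufa1, a small membrane subunit needed for complex I assembly (mm9 chrX:34727583-34731158, minus strand, 3 exons), had 68.6, 78.6 and 93.6 CPM in E15.5 replicates 1 to 3. At P1 it had 23.3, 29.2 and 29.1 CPM. The groups were far apart, and replicate 3 was not needed for the gap. The log2 fold change was -1.56 ± 0.22 (SE, FDR 6.33e-05), and -1.49 ± 0.24 without E15.5 replicate 3 (FDR 0.000316).

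Ndufb7, an accessory subunit that faces the intermembrane space (mm9 chr8:86090570-86095525, plus strand, 3 exons), had 116, 83.4 and 225 CPM at E15.5 and 45.1, 47.8 and 47.1 CPM at P1. Every E15.5 library was above every P1 library, and replicate 3 was the highest by far. Its log2 fold change of -1.60 ± 0.29 (FDR 0.000482) became -1.14 ± 0.22 without that library (FDR 0.00115).

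Ndufaf2, an assembly factor that acts late in building complex I (mm9 chr13:108842784-108948819, minus strand, 4 exons), had 34.2, 35.6 and 56.3 CPM at E15.5 and 18.02, 15.6 and 14.6 CPM at P1. The groups did not overlap. Its log2 fold change was -1.39 ± 0.20 (FDR 7.9e-05), and -1.16 ± 0.17 without E15.5 replicate 3 (FDR 0.000177).

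Ndufv3, which belongs to the module that oxidises NADH, had 96.2, 81.9 and 165 CPM at E15.5 and 54.2, 57.4 and 56.8 CPM at P1. All E15.5 libraries were higher (log2 fold change -1.03 ± 0.22, FDR 0.0016, and -0.72 ± 0.16, FDR 0.00354, without replicate 3).

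Ndufs5, a small accessory subunit of complex I, had the lowest log2 fold change of the set, -2.53 ± 0.67 (FDR 0.00656), but its level is uncertain. It had 20.6, 19.2 and 36.2 CPM at E15.5 and 0.944, 6.01 and 6.18 CPM at P1. The gene table held 57.1% to 75.7% of its transcript table reads in the E15.5 libraries and 7.41% to 30.9% in the P1 libraries. In the transcript table the change was -1.16 (FDR 0.0117), and the gene table without E15.5 replicate 3 gave -2.24 ± 0.72 (FDR 0.0252). Ndufs5 was no longer called (-2.13, FDR 0.103) in the second counting set, where E15.5 has 1 library, replicate 2, which is assumed to vary like the other groups.

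Complex II, succinate dehydrogenase, also works in the citric acid cycle, and 1 of its 4 genes was called. Sdhb (mm9 chr4:140517118-140535108, plus strand, 8 exons) had 205, 204 and 410 CPM at E15.5 and 109, 108 and 103 CPM at P1. The log2 fold change was -1.36 ± 0.23 (FDR 0.000248), and -0.99 ± 0.14 without E15.5 replicate 3 (FDR 0.00017). Sdha, the flavoprotein partner that binds succinate, had 237, 219 and 296 CPM at E15.5 and 218, 241 and 223 CPM at P1, and the groups overlapped (log2 fold change -0.14 ± 0.15, FDR 0.456). The membrane anchors Sdhc and Sdhd were at -0.19 ± 0.25 (FDR 0.562) and -0.15 ± 0.22 (FDR 0.601). Whether Sdhb differs from its partners was not tested.

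In complex III, Uqcrh (mm9 chr4:115739570-115747676, minus strand, 4 exons) had 217, 198 and 438 CPM at E15.5 and 128, 137 and 118 CPM at P1. Its log2 fold change was -1.16 ± 0.26 (FDR 0.0024), and -0.75 ± 0.19 without E15.5 replicate 3 (FDR 0.00777). Uqcrc1, a core subunit that helps hold the complex together, had 262, 222 and 482 CPM at E15.5 and 146, 148 and 155 CPM at P1. Both genes were lower in each P1 library than in any E15.5 library. Uqcr11, a small subunit at the edge of the complex whose promoter is printed above, had 49.4, 47.9 and 96.7 CPM at E15.5 and 28.7, 33.1 and 31.6 CPM at P1. Its call (log2 fold change -1.06 ± 0.33, FDR 0.0157) was lost without E15.5 replicate 3 (-0.69 ± 0.31, FDR 0.0966). The same held for Ndufa11 of complex I (-0.92 ± 0.27, FDR 0.0131, and -0.46 ± 0.19, FDR 0.0717). Uqcrfs1, the Rieske iron-sulfur subunit, was at 0.16 ± 0.27 (FDR 0.657), with overlapping groups.

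The call of Cox4i1, the common isoform of the regulatory subunit 4 of cytochrome c oxidase, was not stable. It was lost without E15.5 replicate 3, when any 1 P1 library was left out, with the groups fitted alone, and with the length and GC correction. This gene had 341, 256 and 771 CPM at E15.5 and 235, 256 and 253 CPM at P1. Replicate 3 was far above the other 2, and replicate 2 lay level with the highest P1 library. The log2 fold change of -0.88 ± 0.30 was called (FDR 0.0256), and -0.32 ± 0.18 without that library was not (FDR 0.181). Atp5b had 1290, 1222 and 2237 CPM at E15.5 and 1056, 1018 and 1009 CPM at P1. Its call (-0.62 ± 0.22, FDR 0.0293) was lost without replicate 3 (-0.34 ± 0.17, FDR 0.125), when any 1 P1 library was left out, and with the groups fitted alone. Its partner Atp5a1, the alpha subunit, was at -0.47 ± 0.20 and was not called (FDR 0.0669).

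Without replicate 3, Cox6b1 and Cox7a2 of complex IV and Atp5k of complex V kept their calls, while Cox6a1 (FDR 0.204) and Cox7a2l (FDR 0.216) of complex IV and Atp5c1 (FDR 0.117) of complex V lost theirs. Cox6b1, which bridges the monomers of the cytochrome oxidase dimer, had 259, 234 and 567 CPM at E15.5 and 168, 157 and 155 CPM at P1 (log2 fold change -1.15 ± 0.28, FDR 0.00396, and -0.67 ± 0.20, FDR 0.0151, without replicate 3). Atp5k, subunit e of the ATP synthase, had 99.2, 78.8 and 184 CPM at E15.5 and 50.4, 46.9 and 44.9 CPM at P1 (-1.35 ± 0.33, FDR 0.00379, and -0.96 ± 0.31, FDR 0.0245). In both genes every E15.5 library was above every P1 library. Cox5a, which faces the matrix, went the other way in replicates 1 and 2, with 66.2, 54.1 and 156 CPM at E15.5 and 136, 110 and 123 CPM at P1. It was not called with all libraries (0.41 ± 0.37, FDR 0.39) and was called higher at P1 without replicate 3 (0.98 ± 0.34, FDR 0.0348). Ndufb6 of complex I was likewise called higher only in that fit and with the correction (0.05 ± 0.30, FDR 0.91, with all libraries and 0.60 ± 0.20, FDR 0.0304, without replicate 3).

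**Figure D4:**
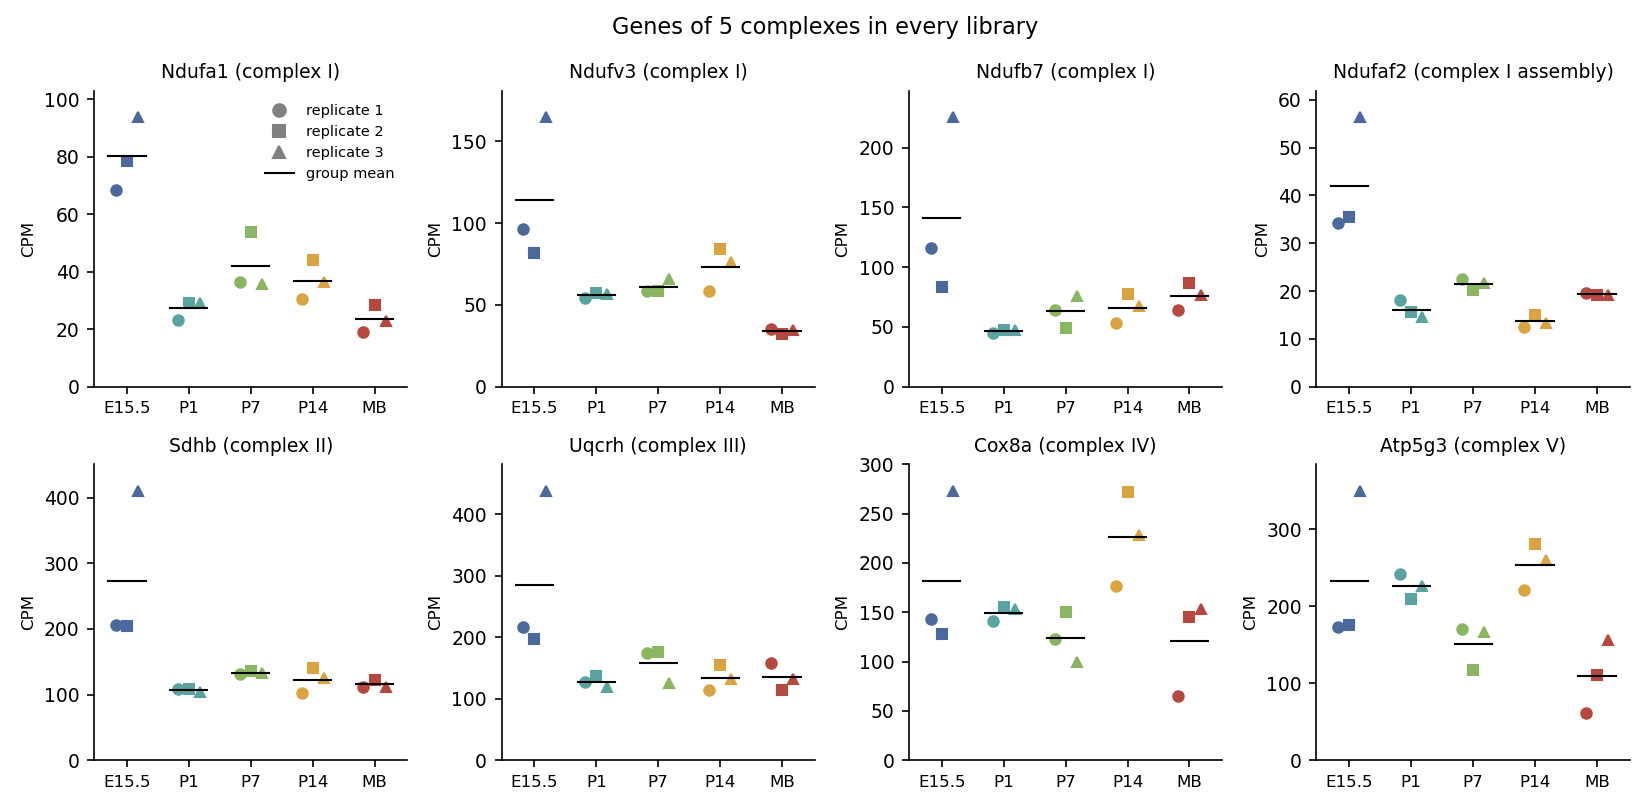
CPM of 8 genes in each library (points, shape by replicate) with the group mean (line), on axes that start at 0. Ndufa1 and Sdhb are higher in all 3 E15.5 libraries than in any P1 library, and Ndufv3 is lowest in the 3 MB libraries, all under 35.0 CPM.

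Both genes that rose at P1 with all libraries are minor isoforms of complex IV. Cox4i2 is the alternative form of subunit 4, induced by low oxygen, and Ndufa4l2 is a relative of Ndufa4 that is also induced by low oxygen. In brain both are known from pericytes, the mural cells of capillaries. Cox4i2 (mm9 chr2:152579909-152590773, plus strand, 5 exons) had 0.174, 0.0835 and 0.420 CPM at E15.5, from 4, 1 and 16 counts. At P1 it had 1.85, 2.29 and 3.65 CPM, from 43, 59 and 97 counts. The log2 fold change was 3.30 ± 0.49 (FDR 8.49e-05), and 4.12 ± 0.58 without E15.5 replicate 3 (FDR 0.00013). Ndufa4l2 (mm9 chr10:126951995-126954208, plus strand, 4 exons) had 1.66, 1.84 and 3.41 CPM at E15.5 and 4.33, 4.81 and 5.09 CPM at P1. Its log2 fold change was 1.02 ± 0.34 (FDR 0.0244), and 1.39 ± 0.36 without E15.5 replicate 3 (FDR 0.0076). Leaving out E15.5 replicate 1 or 2 or P1 replicate 2 or 3 ended the call of Ndufa4l2.

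Pericyte and smooth muscle markers moved the same way. The 12 markers summed to between 37.8 and 65.4 CPM at E15.5 and between 395 and 770.1 CPM at P1, all 12 were called higher at P1, and no marker was at 0 in a whole group. Their part in the rise of Cox4i2 and Ndufa4l2 was not tested. In these bulk samples, fewer cells of a type and less RNA per cell cannot be told apart. Per transcript length, Cox4i2 made up 0.0430% ± 0.0110 of the sum with Cox4i1 at E15.5 and 0.962% ± 0.322 at P1 (SD, n = 3). Ndufa4l2 made up 0.432% ± 0.0432 of the sum with Ndufa4 at E15.5 and 1.33% ± 0.0902 at P1. Both shares were higher in each P1 library than in any E15.5 library.

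The shares of other minor isoforms were small and spread more. Cox6b2 made up 2.37% ± 1.29 of its sum with Cox6b1 at P1 and 2.41% ± 0.0977 at P14, and less in the other groups, with 0.539% ± 0.0529 (E15.5), 0.664% ± 0.348 (P7) and 0.615% ± 0.173 (MB). The share of Cox7a1 in its sum with Cox7a2 ran from a group mean of 1.11% in MB to 2.88% at P14. For Cox6a2, the muscle form of subunit 6a, the group means lay between 0.0268% at E15.5 and 0.314% in MB, and single libraries reached 0. Atp5g1 held 1.44% (P1) to 2.496% (MB) of the sum with Atp5g3 as group means, and its level is among the 11 uncertain ones.

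**Figure D5:**
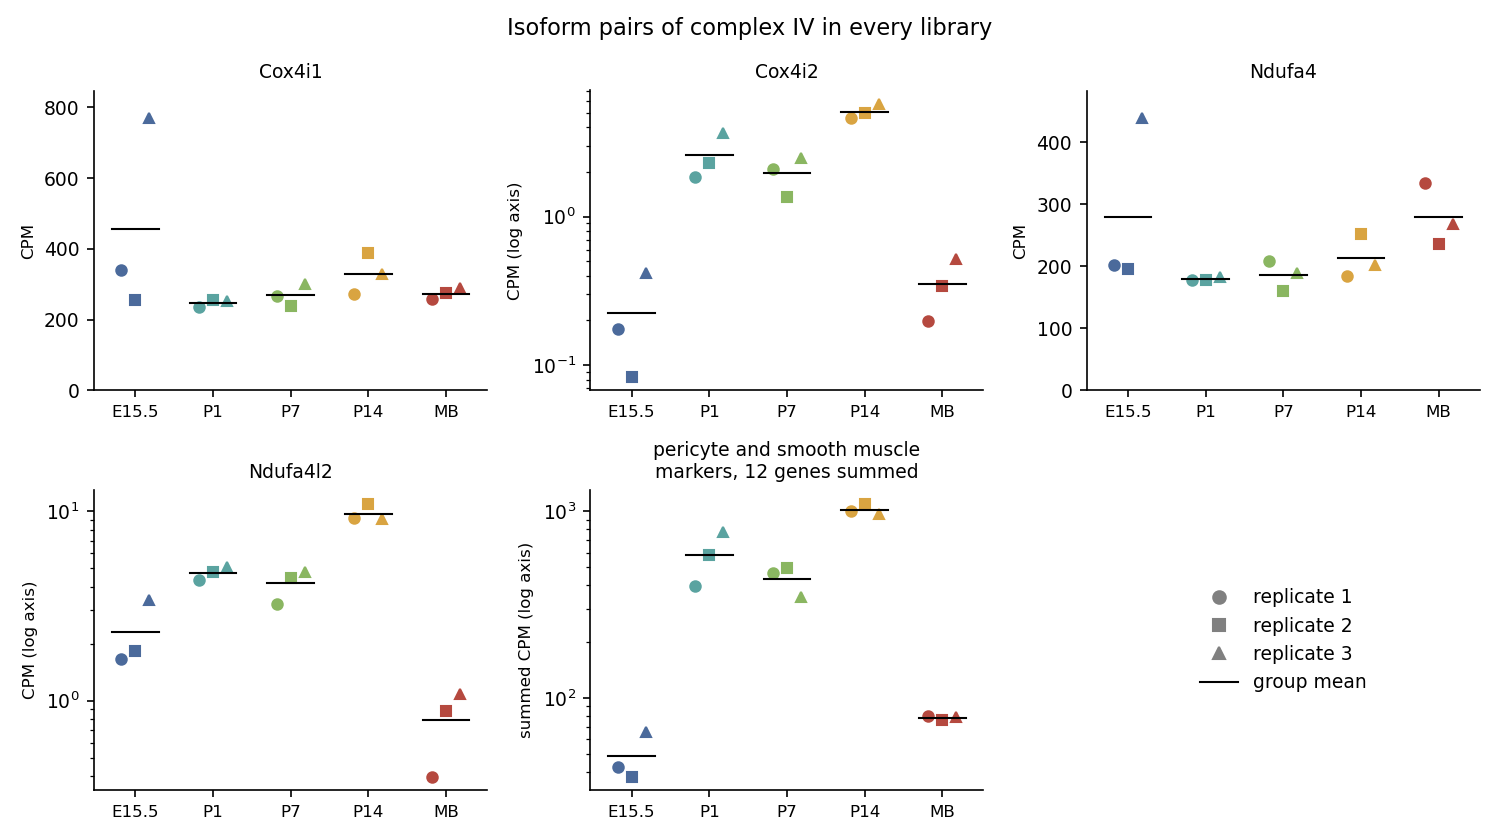
CPM of Cox4i1, Cox4i2, Ndufa4 and Ndufa4l2 and the summed CPM of 12 pericyte and smooth muscle markers in each library (points) with the group mean (line). Axes of Cox4i2, Ndufa4l2 and the markers are logarithmic, and all 3 are low at E15.5 and in MB and highest at P14.

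After birth few changes passed the test when all 15 libraries were fitted together. From P1 to P7, edgeR called 0 of the 84 genes in either direction and 5 had an unadjusted p under 0.05, where 1.4% of all genes were called higher and 1.74% lower. DESeq2 called 1 lower. From P1 to P14, edgeR called 0 and 2 had an unadjusted p under 0.05, against 3.63% of all genes called higher and 5.31% lower. DESeq2 called 1 higher. The median log2 fold change from P1 to P14 was 0.14, against 0.01 for all genes, and 68 of the 84 genes lay above 0. This median ran from 0.04 to 0.26 under the alternatives. Fitting P1 and P14 alone gave 10 higher and 0 lower, against 12.9% and 14.6% of all genes. With the second counting set, which holds all 6 libraries of these ages, 12 were called higher and 2 lower, against 14% and 16.3% of all genes. From P7 to P14, 3 were called higher and 0 lower, with 12 at an unadjusted p under 0.05, against 5.81% of all genes higher and 4.51% lower. The median log2 fold change from P7 to P14 was 0.20, and 61 of the 84 genes lay above 0. It was 0.09 with the length and GC correction, 0.11 without P7 replicate 2, 0.12 without P14 replicate 2 and 0.29 without P14 replicate 1. Fitting P7 and P14 alone gave 14 genes called higher and 2 lower, against 15.2% and 10.7% of all genes. In the test for any difference among the 4 ages, 26 of the 84 were called, against 55.7% of all genes.

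The 3 genes called higher at P14 were minor isoforms of complex IV. Cox4i2 had 2.10, 1.35 and 2.47 CPM at P7 and 4.59, 4.97 and 5.72 CPM at P14 (log2 fold change 1.37 ± 0.40, FDR 0.0435). Ndufa4l2 had 3.24, 4.47 and 4.82 CPM at P7 and 9.20, 10.97 and 9.09 CPM at P14 (1.22 ± 0.33, FDR 0.0319). Cox6b2, best known as the testis form of subunit 6b, had 1.02, 0.635 and 2.20 CPM at P7 and 3.64, 5.76 and 4.75 CPM at P14 (1.89 ± 0.51, FDR 0.0314). In all 3 genes each P14 library was above each P7 library. The calls of Cox4i2 and Ndufa4l2 were lost when any 1 of the 6 libraries was left out, and that of Cox6b2 when any but P7 replicate 3 was. The pericyte and smooth muscle markers summed to between 346 and 493 CPM at P7 and between 963 and 1094 CPM at P14, and 6 of the 12 were called higher. For oligodendrocytes 3 of 10 markers were called higher and 1 lower, for endothelium 2 of 8 higher, and for granule neuron precursors 5 of 12 lower. For maturing granule neurons 5 of 10 were called higher and 0 lower. At P14 the markers of maturing granule neurons summed to between 5095 and 6356.5 CPM, and those of precursors to between 4626 and 5319 CPM. Oligodendrocyte markers summed to between 1089 and 2182 CPM at P7 and between 6669 and 7201 CPM at P14. Choroid plexus markers summed to between 52.6 and 2038 CPM at P7 and between 5214 and 8620 CPM at P14. The part of these cells in the results was not tested.

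In MB against P7, 4 of the 84 genes were called lower and 0 higher, with 7 at an unadjusted p under 0.05. Over all genes 20.7% were called lower and 13.7% higher. DESeq2 called 2 higher. With the length and GC correction 9 were called lower and 1 higher, against 24.3% and 19.2% of all genes. The median log2 fold change was -0.03. Ndufv3, a subunit of the NADH-oxidising tip of complex I (mm9 chr17:31657060-31668266, plus strand, 4 exons), had 58.4, 58.4 and 66.1 CPM at P7 and 34.99, 31.999 and 34.7 CPM in MB. The log2 fold change was -0.85 ± 0.22 (FDR 0.00735), with a gap between the groups larger than the spread in either. Ndufa1 had 36.3, 53.7 and 35.6 CPM at P7 and 18.9, 28.3 and 23.0 CPM in MB (-0.84 ± 0.22, FDR 0.00765). Fitting the 2 groups alone ended the call of Ndufa1. In the first counting set, where MB has 1 library, replicate 1, Ndufa1 was at -1.101 (FDR 0.0546) and Ndufv3 at -0.75 (FDR 0.15), on the assumption that this library varies like the other groups. Over the groups, Ndufv3 lay below every other library in all 3 MB libraries.

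Cox4i2 and Ndufa4l2 fell the most. In MB Cox4i2 had 0.198, 0.342 and 0.520 CPM, from 5, 14 and 13 counts (log2 fold change against P7 -2.47 ± 0.46, FDR 0.00063). Ndufa4l2 had 0.397, 0.879 and 1.08 CPM (-2.40 ± 0.36, FDR 0.000117). The common partners were not called. Cox4i1 had 257, 275 and 289 CPM in MB and 268, 239 and 302 CPM at P7 (0.02 ± 0.30, FDR 0.965), and Ndufa4 had 335, 237 and 269 CPM in MB and 209, 161 and 189 CPM at P7 (0.59 ± 0.27, FDR 0.102). Pericyte and smooth muscle markers summed to between 76.3 and 79.5 CPM in MB, and 8 of the 12 were called lower than at P7. For endothelium 8 of 8 markers were called lower than at P7, for Purkinje cells 7 of 8 and for GABAergic interneurons 8 of 8. For oligodendrocytes 7 of 10 were called lower and 2 higher, and for astroglia 5 of 8 lower and 2 higher. For maturing granule neurons 4 of 10 were called lower, and for granule neuron precursors 6 of 12 higher and 2 lower. For microglia and macrophages 7 of 9 were called higher. The part of these cells in the changes was not tested.

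In MB against P14, 8 genes were called lower and 1 higher, where 27.2% of all genes were called lower and 22.9% higher. The median log2 fold change was -0.21, against 0.01 for all genes. With the length and GC correction 24 were called lower and 4 higher, against 30.9% and 27.7% of all genes, and the median was -0.18. Without MB replicate 1 the median was -0.09, without P14 replicate 2 it was -0.11, with the second counting set it was -0.06, and without P14 replicate 1 it was -0.32. The 5 lowest were Cox4i2 (-3.84 ± 0.47, FDR 9.55e-06), Ndufa4l2 (-3.62 ± 0.38, FDR 2.17e-06), Cox6b2 (-2.23 ± 0.52, FDR 0.00231), Atp5g3 and Ndufv3. For pericyte and smooth muscle markers, 11 of the 12 were called lower in MB than at P14, as were 8 of 8 endothelial ones. For maturing granule neurons 9 of 10 were called lower, and for granule neuron precursors 8 of 12 were called higher and 3 lower. For Purkinje cells 7 of 8 were called lower, for GABAergic interneurons 7 of 8, for astroglia 5 of 8 and for choroid plexus 5 of 7. For oligodendrocytes 7 of 10 were called lower and 2 higher, and for microglia and macrophages 7 of 9 higher. The part of these cells in the changes was not tested. Cox6b2 had 0.555, 1.27 and 1.16 CPM in MB, below each P14 library. Cox7a1, the heart and muscle form of subunit 7a, had 0.595, 0.757 and 0.841 CPM in MB and 1.25, 2.02 and 1.30 CPM at P14, and its call (-1.06 ± 0.40, FDR 0.0374) was lost when P14 replicate 2 or 3 or any MB library was left out.

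Among abundant genes, Atp5g3 (mm9 chr2:73746504-73749382, minus strand, 5 exons) had 221, 281 and 260 CPM at P14 and 60.9, 111 and 156 CPM in MB. The log2 fold change was -1.21 ± 0.32 (FDR 0.00488), with no overlap, and MB replicate 1 was the lowest. Ndufv3 had 58.8, 83.97 and 76.2 CPM at P14 (-1.11 ± 0.22, FDR 0.000715). The calls of Atp5g3 and Ndufv3 held under all 14 alternatives. Cox8a, a small subunit of complex IV, had 177, 272 and 229 CPM at P14 and 65.6, 145 and 153 CPM in MB (-0.90 ± 0.32, FDR 0.0286). Its call was lost without MB replicate 1, P14 replicate 2 or P14 replicate 3, and with the groups fitted alone. Ndufa1 had 30.3, 43.9 and 36.3 CPM at P14 (-0.65 ± 0.22, FDR 0.0214), and its call was lost without P14 replicate 2, MB replicate 1 or MB replicate 3. The single gene called higher in MB was Ndufaf2, with 12.5, 15.1 and 13.4 CPM at P14 and 19.5, 19.3 and 19.3 CPM in MB (0.50 ± 0.20, FDR 0.049), and this call was lost when any 1 of the 6 libraries was left out. MB replicate 1 was the lowest library for 36 of the 84 genes and the highest for 6, and 44.6% of its records had several alignments.

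Genes that serve the same machinery were taken from lists of pathway genes. Of 22 regulators of mitochondrial biogenesis tested, 3 were called higher and 6 lower at P1 than at E15.5 (2 and 4 without E15.5 replicate 3), where 25.4% of all genes were called higher and 20.9% lower. In MB 5 were higher and 3 lower than at P7, against 13.7% and 20.7% of all genes, and 10 higher and 4 lower than at P14, against 22.9% and 27.2%. The median log2 fold change of the 22 was 0.15 against P7 and 0.67 against P14, with 16 above 0 in both. Those called higher than at P7 were Pprc1, Tfam, Twnk, Ssbp1 and Tefm, with log2 fold changes from 0.52 (Tfam) to 0.97 (Ssbp1). The orphan receptor Esrrg, which switches on respiratory genes in neurons and heart, was lower in MB by a log2 fold change of -5.35 ± 0.34 against P7 (FDR 4.06e-08). It had 38.2, 50.2 and 58.4 CPM at P7 and 1.19, 1.099 and 1.32 CPM in MB. Its relative Esrrb was at -3.39 ± 0.43 (FDR 2.08e-05), and the coactivator Ppargc1a at -1.72 ± 0.23 (FDR 4.11e-05), from 17.4, 17.8 and 18.6 CPM at P7 to 6.15, 4.57 and 5.56 CPM in MB. In the same comparison the median log2 fold change was -5.34 over 8 Purkinje cell markers and -4.24 over 8 markers of GABAergic interneurons, and the part of these cells in the values of Esrrg, Esrrb and Ppargc1a was not tested. Ssbp1, which coats single-stranded mitochondrial DNA, was higher in MB than at P14 by 1.96 ± 0.37 (FDR 0.000487). Over the same comparisons the 84 oxidative phosphorylation genes had median log2 fold changes of -0.03 and -0.21.

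Proteins of the mitochondrial ribosome translate the subunits encoded in mitochondrial DNA. Of 73 such genes tested, 36 were called lower and 0 higher at P1 than at E15.5, with a median log2 fold change of -0.61, and 19 lower and 2 higher with a median of -0.36 without E15.5 replicate 3. Of all genes 20.9% were called lower and 25.4% higher with all libraries, and 18.3% lower and 20.8% higher without that one. These shares also stand behind the P1 counts of the lists that follow. In MB against P14, 19 ribosomal genes were called higher and 1 lower, with a median of 0.35, against 22.9% and 27.2% of all genes. Of 35 other assembly factors, 8 were called lower at P1 than at E15.5 and 0 higher (4 and 2 without replicate 3), among them Coa3 (-1.36 ± 0.30, FDR 0.00191) and the complex III chaperone Bcs1l (-1.26 ± 0.24, FDR 0.000713). Cyc1, the cytochrome c1 of complex III, had 187, 152 and 376 CPM at E15.5 and 111, 107 and 121 CPM at P1 (-1.08 ± 0.34, FDR 0.0169), and it was not called without replicate 3 (-0.64, FDR 0.115). Of 12 genes of the citric acid cycle, 4 were called lower and 1 higher (3 and 1 without replicate 3), and of 13 for coenzyme Q synthesis, 4 lower and 2 higher (2 and 2). Of 10 carriers and uncouplers, 1 was called lower, the heart-type ADP/ATP carrier Slc25a4 (-0.76 ± 0.23, FDR 0.0154), and without replicate 3 it was not (-0.49, FDR 0.0689) while 3 of 11 were called higher. Of 14 genes known to respond to low oxygen, 4 were called higher and 3 lower at P1 (4 and 2 without replicate 3). In MB 2 were higher and 7 lower than at P14, against 22.9% and 27.2% of all genes. They ran from Car9 (-6.09 ± 0.84, FDR 3.23e-05) up to a log2 fold change of 3.81. Against P7, 2 were higher and 6 lower in MB, where 13.7% of all genes were called higher and 20.7% lower. In that comparison Hk2 was higher by 4.10 ± 0.42 (FDR 2.97e-06).

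The 5 genes outside the set with group means most like the median oxidative phosphorylation gene were Me1, Aamp, Dhps, Src and Mydgf, with Pearson's r between 0.994 and 0.997. This likeness is over 5 group means among 11499 candidate genes, and E15.5 replicate 3 is part of the E15.5 mean.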

How the data were processed

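Trimmomatic, TopHat, StringTie and HTSeq and the mouse build mm9 are named in the submitters' processing notes, and their roles and versions are not given in the sources used here. The authors deposited raw counts per gene, used here without change, and counts per transcript, used as an alternative and for transcript positions. A table of counts per start site was not used. Summary lines that name no gene were kept out of library sizes.

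Groups came from the titles and labels. In R 4.3.3, edgeR 4.0.16 (filterByExpr with a minimum count of 10 and minimum total of 15, TMM, glmQLFit and glmQLFTest) was fitted to all 15 libraries with 1 mean per group, on 10 residual degrees of freedom. FDR is Benjamini-Hochberg over the 15259 genes tested. DESeq2 1.42.0 was an alternative. The length and GC correction subtracted a smooth trend per library over 14494 genes with known length, keeping each library's median. The edgeR fit was tested on simulated counts for P1 against E15.5, without a length trend or an outlying library. The correction, the test over the 4 ages and the other alternatives were not simulated.

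Named genes are, per contrast, the 4 called members with the largest change in each direction, with at least 5 CPM and no overlap between groups, along with isoform pairs, complex II, the 3 most abundant members of each complex per length, and up to 4 called genes of a pathway list. Ndufa11, Uqcr11, Uqcrfs1, Atp5k, Cox5a, Ndufb6 and Ndufv3 at P1 were added after their values were seen. The members and lists were chosen with earlier results of these data known. Alternatives were other size factors, no filter, groups fitted alone, the transcript table, 1 counting set, leaving out each library, and replicate number as a block.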

Additional observations from a re-analysis of the deposited data

How the results depend on the processing

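Of 32 called changes of single oxidative phosphorylation genes followed through the alternatives, 0 reversed, while counts of calls moved; the pathway genes were not followed in this way. With the length and GC correction, P1 against E15.5 gave 9 higher. MB against P7 gave 1 higher and 9 lower with it, and MB against P14 4 higher and 24 lower. P7 against P1 gave 2 higher and 1 lower, where 629 and 647 of all 14494 genes were called. P14 against P7 gave 6 higher and 1 lower, where 1463 and 1565 of all genes were called. DESeq2 gave 1 lower for P7 against P1, and 6 higher and 1 lower for P14 against P7. It gave 1 higher for P14 against P1 and 2 higher for MB against P7. Over all genes DESeq2 called 511 higher and 713 lower, 1426 and 992, 1211 and 1196, and 2548 and 3320 in these contrasts in turn. With groups fitted alone, P14 against P7 gave 14 higher and 2 lower, P14 against P1 10 higher, MB against P7 1 higher and MB against P14 2 higher. DESeq2's size factors gave 1 higher for MB against P7. Without a filter on low counts, and in the transcript table, MB against P14 gave 0 higher. The 9 libraries of the second counting set gave 12 higher and 2 lower for P14 against P1, against 14% and 16.3% of all genes. For MB against P14 they gave 6 higher and 15 lower. That set holds 1 E15.5 library (replicate 2), and the first set of 6 holds 1 MB library (replicate 1). Counts for P1 against E15.5 and MB against P7 within a set are therefore not given. The cause of these shifts was not tested. Where no share or count of all genes called is given with a count, here or above, the count describes the fit. It is then no result about these genes, and this also holds for the counts in the paragraphs that follow.

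No pairing of libraries by replicate number was seen. Deviations of same-numbered libraries correlated between -0.31 and 0.33, with 7 of 30 pairs over 0.1. Those of differently numbered libraries correlated between -0.48 and 0.47, with 14 of 60 pairs over 0.1. Not every library correlated best with its own number. With 3 libraries per group, these values cannot exclude a pairing. With replicate number as a block, P14 against P1 gave 1 higher, MB against P7 1 higher and MB against P14 0 higher.

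Leaving out each library in turn gave 1 to 4 higher and 15 to 38 lower for P1 against E15.5, 0 to 1 higher for P14 against P7, 0 to 2 higher and 4 to 6 lower for MB against P7, and 0 higher and 5 to 8 lower for MB against P14. The count over the 4 ages ran from 19 to 36. The low value of 15 came without E15.5 replicate 3, and the low value of 5 without P14 replicate 2 or MB replicate 1. Where a group was left with 2 libraries, the spread was still estimated from all groups. Low counts limit Cox4i2, Cox6b2, Ndufa4l2 and Cox7a1, which had at most 10.97 CPM (Ndufa4l2) in any library.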
